A study of Bos grunniens with 12 samples.

Results

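Elastin and 8 further genes of the elastic fibre (ELN, FBN1, FBN2, FBLN1, FBLN2, FBLN5, LOX, LOXL1 and LTBP1) were followed in yak testes of 2 ages. The genes were taken by symbol, with every identifier a symbol stood on, which gave 20 of the 20953 rows of the deposited expression table. Of these rows, 10 had a mean of at least 0.5 FPKM (fragments for each kilobase of a transcript, divided by the mapped fragments in the library, so a level per length) over the 6 libraries, and these 10 covered all 9 symbols. The 9 genes were chosen by measured values, the difference in FPKM between the ages in these same libraries, so their differences are given as a description and no test is read for them.

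Elastic fibres let arteries, the skin and the capsule and peritubular wall of the testis stretch and recoil. Tropoelastin, the product of ELN, is laid down on a scaffold of fibrillin microfibrils (FBN1, FBN2), with fibulins (FBLN1, FBLN2, FBLN5) as adaptors, and is cross-linked by the copper enzymes LOX and LOXL1. LTBP1 ties latent TGF-beta, a growth factor that acts on matrix genes, to the same microfibrils.

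Testes came from 6 healthy, untreated yaks (Bos grunniens). The Y group held 3 animals aged 1.5 years, described as sexually immature, and the M group 3 animals aged 5 years, described as mature. Each testis gave 1 library after pull-down with an antibody to m6A and 1 input library without that step, 12 in all, and expression values are given for the 6 input libraries, from poly(A) RNA of whole tissue. The testes of the younger animals came from castration and those of the older animals from slaughter according to the labels (euthanasia in the methods), so the way of collection and the age cannot be told apart. Groups were taken from the ages in the titles. The letters Y and M are used as in the article, while the deposited record gives them the other way round.

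One field of the record goes against the titles: the developmental stage entry names the opposite stage for every sample. The tissue was checked against marker genes of its cell types. Genes of elongating spermatids, cells that form only once meiosis has been completed, summed to between 1261 and 1320 FPKM in the Y group and between 282 and 911 FPKM in the M group, and all 5 of the list's 10 genes that have a row were lower in every M library. The order of these genes goes against the titles and runs with the stage field. Their transcripts were present in both groups, however. TNP1 stood at 883, 852 and 879 FPKM in the Y group and at 201, 641 and 550 FPKM in the M group. These markers therefore set neither group apart as tissue without spermatids, under either set of labels. All 6 round spermatid genes with a row had a lower mean in the M group, 3 of them without overlap. All 6 Sertoli markers with a row were higher in every M library, and the sums of spermatocyte markers overlapped. Which of the titles and the stage field is right cannot be told apart here. Every direction below rests on the titles, and with the stage field in their place each would be reversed. M replicate 1 stood apart from the other M libraries, with the lowest spermatid sum and the lowest total of FPKM (116187, against 129070 to 139921 in the other 5 libraries). M replicate 2 stood apart as well, with a sum of round spermatid markers (135 FPKM) inside the range of the Y group (126 to 182 FPKM), against 32.1 and 52.6 FPKM in M replicates 1 and 3.

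ELN, the gene of the elastic core itself, had the largest difference of the 9 genes. Its level was 1.68 FPKM in each of the 3 Y libraries (mean 1.68 ± 0.00362, SD, n = 3). In the M libraries it was 5.44, 5.16 and 5.57 FPKM (mean 5.39 ± 0.211, SD, n = 3). All M libraries lay above all Y libraries, with a wide gap between the groups, and the mean was 3.21 times that of the Y group. The log2 difference of FPKM + 0.1, M minus Y, was 1.62 (standard error 0.14). With any 1 library left out it lay between 1.60 and 1.65. It was 1.55 after quantile normalization and 1.56 after median ratio scaling.

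The levels of ELN were also close together within a group. An SD from 3 libraries is itself uncertain, so this closeness is not read as a trait of the gene. Its SD was 0.215% of its mean in the Y group, where the median over the 12437 genes tested was 12.3% and 5 genes (0.0402%) had a smaller value. In the M group its SD was 3.91% of its mean, against a median of 23.1%, and 364 genes (2.93%) had a smaller value. Against the Y mean, ELN differed by 1.64, 1.56 and 1.67 on the log2 scale in M replicates 1, 2 and 3, which placed it above 96.7%, 99.3% and 98.7% of all genes tested in these libraries. M replicate 1, in which the spermatid genes were lowest, held a level of ELN between those of M replicates 2 and 3. These levels lay close together, and nothing is read from their order.

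The fibrillins build the microfibril. FBN1, the main fibrillin of adult tissue, stood at 1.81, 2.46 and 2.41 FPKM in the Y group (2.22 ± 0.364, SD, n = 3). It stood at 4.32, 3.37 and 3.83 FPKM in the M group (3.84 ± 0.472, SD, n = 3). The groups did not overlap, and the log2 difference was 0.77 (standard error 0.19). FBN2, the fibrillin prominent in development, had 4.79, 5.09 and 4.06 FPKM in the Y group and 5.22, 6.11 and 5.36 FPKM in the M group. Here too every M library lay above every Y library, but the gap was narrow and the log2 difference was 0.26 (standard error 0.15), or 0.17 without Y replicate 3. FBN2 exceeded this row of FBN1 in each of the 6 libraries, by 2.65, 2.07 and 1.69 times in the Y group and by 1.21, 1.81 and 1.40 times in the M group. These ratios overlapped between the groups.

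The symbol FBN1 also stands on a second row (ENSBGRG00000016185), which carries pyrimidine metabolism pathway terms. Its levels were 6.53, 5.59 and 7.46 FPKM in the Y group and 7.38, 7.99 and 4.47 FPKM in the M group. The groups overlapped and the log2 difference was -0.02 (standard error 0.25). In the RefSeq annotation of another yak assembly (Bosgru_T2T1.0) the neighbour of FBN1 is DUT, a gene of pyrimidine metabolism, and the symbol DUT stands on 0 rows of the deposited table. Which transcript this second row measures was not tested. With both FBN1 rows summed, the log2 difference of FBN1 was 0.24 in place of 0.77, so the value for FBN1 depends on the choice of row. The sum also exceeded FBN2 in each of the 6 libraries (ratio of FBN2 to the sum 0.412 to 0.645).

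**Figure D1:**
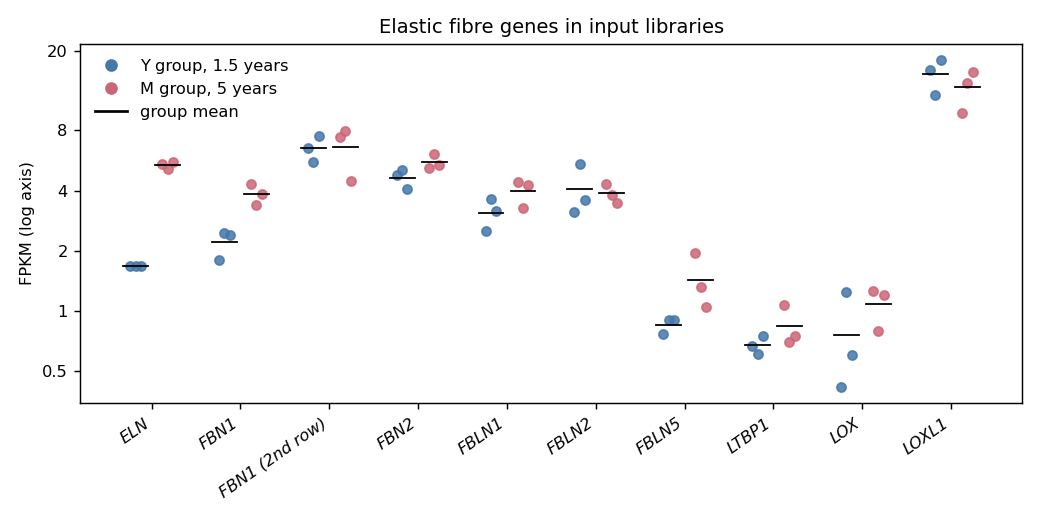
Level of each elastic fibre gene in FPKM (log axis) in 3 Y (blue) and 3 M (red) input libraries; each point is a library and each bar a group mean. ELN shows 3 coinciding Y points at 1.68 FPKM and M points between 5.16 and 5.57, while LOXL1, FBLN2 and the second FBN1 row overlap.

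The fibulins link elastin to cells and microfibrils. FBLN5, which elastic fibre assembly requires, had 0.768, 0.899 and 0.898 FPKM in the Y group (0.855 ± 0.0755, SD, n = 3). It had 1.94, 1.31 and 1.05 FPKM in the M group (1.43 ± 0.459, SD, n = 3). The groups did not overlap, M replicate 1 was the highest library and M replicate 3 lay close to the Y libraries. The log2 difference was 0.65 (standard error 0.27), and 0.42 without M replicate 1.

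FBLN1, a fibulin of basement membranes and elastic fibres, had 2.51, 3.62 and 3.18 FPKM in the Y group and 4.41, 3.26 and 4.25 FPKM in the M group. M replicate 2 fell among the Y libraries, and the log2 difference was 0.35 (standard error 0.20), or 0.21 without Y replicate 1. FBLN2, a fibulin of vessel walls, had 3.14, 5.45 and 3.59 FPKM in the Y group and 4.34, 3.82 and 3.47 FPKM in the M group. Its highest level was in Y replicate 2 and the groups overlapped widely, with a log2 difference of -0.03 (standard error 0.23).

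The 2 cross-linking enzymes stood far apart in level. LOXL1, the lysyl oxidase most tied to elastin, was the highest of the 9 genes in every library, with FBN1 taken by its first row. It had 16.0, 12.0 and 17.9 FPKM in the Y group (15.3 ± 3.01, SD, n = 3) and 9.81, 13.8 and 15.8 FPKM in the M group (13.1 ± 3.03, SD, n = 3). The groups overlapped, with the lowest level in M replicate 1, and the log2 difference was -0.23 (standard error 0.23). It was -0.03 without M replicate 1 and -0.11 without Y replicate 3, and -0.39 and -0.37 without Y replicate 2 and M replicate 3.

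LOX, the lysyl oxidase of collagen and elastin, had 0.419, 1.25 and 0.603 FPKM in the Y group and 1.26, 0.792 and 1.20 FPKM in the M group. Y replicate 2 reached the level of the highest M libraries, so the groups overlapped. The log2 difference was 0.56 (standard error 0.40). It was 0.26 without Y replicate 1 and 0.95 without Y replicate 2.

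LTBP1, the latent TGF-beta binding protein, was the lowest of the 9 genes by mean in both groups. It had 0.669, 0.612 and 0.754 FPKM in the Y group and 1.07, 0.702 and 0.751 FPKM in the M group. Only M replicate 1 lay above the Y libraries. The log2 difference was 0.26 (standard error 0.27), and 0.09 without M replicate 1.

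LOXL1 was the symbol with the most rows, 11 in all. Of these, 9 rows carry serine protease terms and 1 carries retroelement terms. The row described above (ENSBGRG00000005233) carries GO terms of neither kind. Of the rows with serine protease terms, 7 were listed at 0 in every library, 1 was above 0 in M replicate 1 alone (0.170 FPKM) and 1 reached at most 0.160 FPKM. The row with retroelement terms lay between 0.219 and 0.478 FPKM. None of these 10 rows had a mean of at least 0.5 FPKM, and with all LOXL1 rows summed the log2 difference of LOXL1 was still -0.23.

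The functional terms of the table did not name the elastic fibre for every gene. ELN (ENSBGRG00000013383) stands on 1 row with no GO term, as is the case for 2874 rows (13.7%) of the table. The main rows of FBN1 (ENSBGRG00000015364), FBLN5 (ENSBGRG00000017027) and LTBP1 (ENSBGRG00000008349) carry retroelement terms. The set of 7 terms on the LTBP1 row stands alone on 2392 rows (11.4%). The rows of FBN2 (ENSBGRG00000006565), FBLN1 (ENSBGRG00000000902), FBLN2 (ENSBGRG00000017885), LOX (ENSBGRG00000011693) and the main LOXL1 row carry GO terms without retroelement, serine protease or pyrimidine terms. They were grouped as rows with matrix or lysyl oxidase terms by this absence, and their terms were not tested one by one. For ELN, FBN1, FBLN5 and LTBP1 the identity of the row therefore rests on its symbol alone. Of the table's 13664 symbols, 3871 stood on more than 1 row.

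Of the 10 rows with a mean of at least 0.5 FPKM, 7 had a log2 difference above 0, where 53.5% of all genes tested did. In 4 of them (ELN, FBN1, FBN2 and FBLN5) every M library lay above every Y library, and in 0 every M library lay below, where 19.8% and 13.9% of all genes tested did so. An unadjusted p under 0.05 from limma stood on 3 of them (ELN, FBN1 and FBLN5), all higher in the M group, where 25.1% of all genes tested had such a p, 14.2% with a higher and 10.9% with a lower level. ELN alone was among the 4 genes of 12437 (0.0322%) with an adjusted p under 0.05 by the Benjamini-Hochberg method in limma, of which 2 were higher (0.0161%) and 2 lower (0.0161%). The median log2 difference was 0.30 over the 10 rows and 0.04 over all genes tested. The count of 4 was 0 without Y replicate 3 and 2403 without M replicate 2, where the adjusted p of ELN in limma was 0.301 and 0.0111. Without Y replicate 1, Y replicate 2, M replicate 1 or M replicate 3 the adjusted p of ELN in limma was 0.154, 0.204, 0.0506 and 0.272, so its call was kept in 1 of the 6 fits that each left out a library. As the genes were chosen for this difference, nothing is read from these counts.

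The order of the genes by level was taken over the main row of each, without the second FBN1 row. It differed between the groups in the places of ELN, FBLN2 and FBN1. By group mean, the order in the Y group was LOXL1, FBN2, FBLN2, FBLN1, FBN1, ELN, FBLN5, LOX and LTBP1. In the M group it was LOXL1, FBN2, ELN, FBLN1, FBLN2, FBN1, FBLN5, LOX and LTBP1. Neighbours whose libraries overlapped were FBN2 and FBLN2, FBLN2 and FBLN1, FBLN5 and LOX, and LOX and LTBP1 in the Y group. In the M group they were FBN2 and ELN, FBLN1 and FBLN2, FBLN2 and FBN1, FBLN5 and LOX, and LOX and LTBP1. ELN was thus the 6th of the 9 genes in each Y library, apart from its neighbours, and the 2nd or 3rd in each M library, level with FBN2.

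The summed level of the 9 genes moved less than that of ELN. The sum over their main rows was 31.8, 33.1 and 35.1 FPKM in the Y group and 37.8, 38.4 and 41.2 FPKM in the M group. ELN made up 5.30%, 5.07% and 4.79% of it in the Y group and 14.4%, 13.4% and 13.5% in the M group. LOXL1 made up 50.3%, 36.4% and 51.1% in the Y group and 25.9%, 36.0% and 38.2% in the M group. The share of ELN did not overlap between the groups, and that of LOXL1 did.

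**Figure D2:**
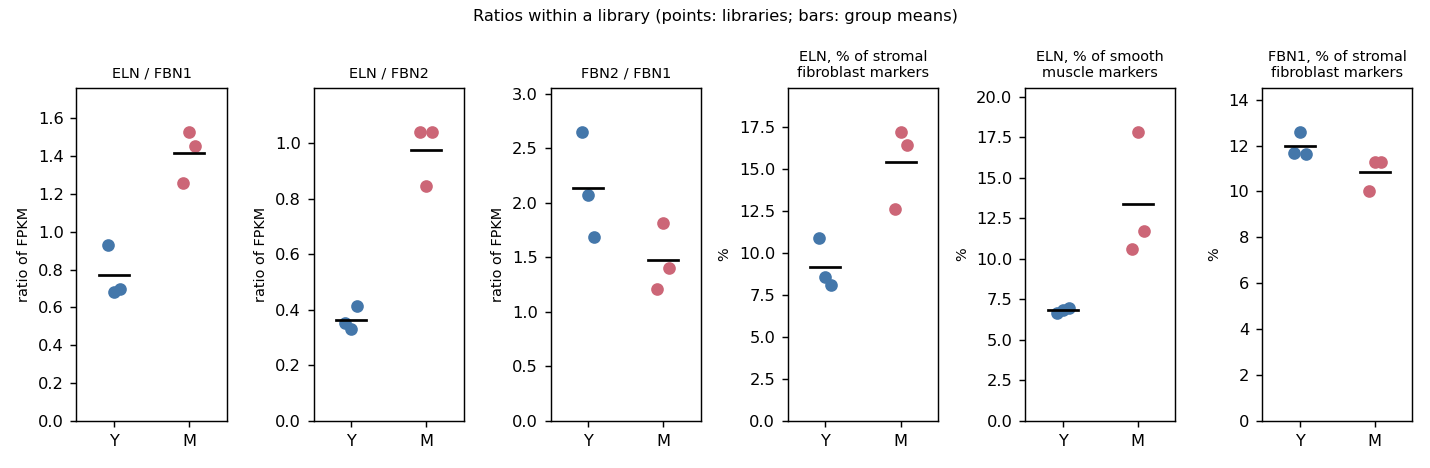
Ratios of FPKM within each input library, with each point a library (blue, Y group; red, M group) and each bar a group mean; the first 3 panels divide 1 gene by another and the last 3 give a gene as a percent of summed marker genes. ELN over FBN1 lies between 0.681 and 0.932 in the Y group and between 1.26 and 1.53 in the M group, while FBN2 over FBN1 overlaps.

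Set against its scaffold, ELN was also higher in the M group. The ratio of ELN to FBN1 was 0.932, 0.681 and 0.698 in the Y libraries and 1.26, 1.53 and 1.45 in the M libraries. The ratio of ELN to FBN2 was 0.351, 0.329 and 0.414 in the Y libraries and 1.04, 0.844 and 1.04 in the M libraries. Neither ratio overlapped between the groups, and ELN was the lesser transcript beside the main FBN1 row in all Y libraries and the greater in all M libraries. With both FBN1 rows summed, ELN was the lesser in all 6 libraries, at 0.202, 0.208 and 0.170 of the sum in the Y group and 0.465, 0.454 and 0.671 in the M group. The ratio of FBLN5 to ELN ran the other way, with 0.456, 0.537 and 0.534 in the Y libraries and 0.357, 0.255 and 0.188 in the M libraries. ELN thus differed more between the ages than FBN1, FBN2 or FBLN5 in every M library.

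The testis is a mixture of cells, and in bulk tissue fewer cells of a type and less RNA per cell cannot be told apart. Elastic fibre genes are known from smooth muscle, peritubular myoid cells, fibroblasts and endothelium, and markers of these cells were set beside them. Smooth muscle and peritubular myoid markers (11 of 12 with a row) summed to between 24.2 and 25.3 FPKM in the Y group and between 28.9 and 51.2 FPKM in the M group, and all 11 had a higher mean in the M group, 4 of them without overlap. Stromal fibroblast markers (8 of 10 with a row) summed to between 15.5 and 20.7 FPKM in the Y group and between 29.9 and 43.1 FPKM in the M group, and all 8 had a higher mean in the M group, 4 of them without overlap. Endothelial markers (9 of 10 with a row) summed to between 10.5 and 16.7 FPKM in the Y group and between 16.1 and 23.1 FPKM in the M group, which overlapped. No marker with a row was listed at 0 in every library.

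The smooth muscle and stromal fibroblast sums were thus higher in every M library together with ELN and FBN1, while the endothelial sums overlapped. ELN as a percent of the summed stromal fibroblast markers was 10.9, 8.59 and 8.11 in the Y libraries and 12.6, 17.2 and 16.4 in the M libraries. As a percent of the summed smooth muscle markers it was 6.65, 6.81 and 6.96 in the Y libraries and 10.6, 17.8 and 11.7 in the M libraries. ELN was therefore higher in the M group also relative to either list, with no overlap. FBN1 was not. As a percent of the stromal fibroblast markers it was 11.7, 12.6 and 11.6 in the Y libraries. It was lower in every M library, at 10.0, 11.3 and 11.3. As a percent of the smooth muscle markers FBN1 overlapped between the groups (7.14 to 9.99 and 8.05 to 11.7). The stromal fibroblast list itself holds matrix genes, among them COL1A2, COL3A1 and DCN. The part that the cell mixture has in these differences was not tested beyond these ratios.

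**Figure D3:**
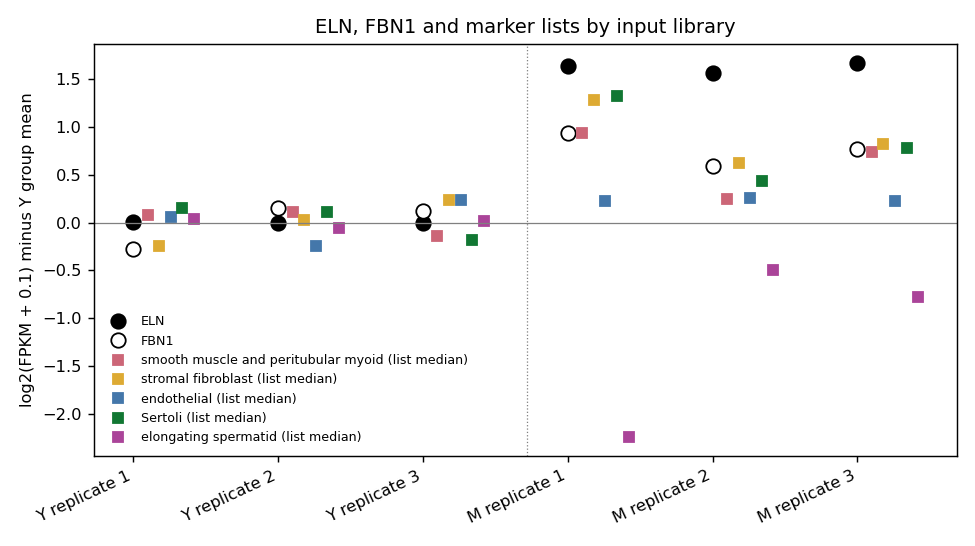
Level of ELN (filled circles), FBN1 (open circles) and the median gene of 5 marker lists (squares) in each input library, as log2(FPKM + 0.1) minus the mean of the Y group. ELN lies between 1.56 and 1.67 in the 3 M libraries, while the stromal fibroblast median is 1.29, 0.62 and 0.82 and the elongating spermatid median is -2.24, -0.50 and -0.78.

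Across the M libraries the stromal fibroblast and smooth muscle lists varied more than ELN, and the endothelial list did not (0.23, 0.26 and 0.23 on the log2 scale). The median stromal fibroblast marker differed from the Y mean by 1.29, 0.62 and 0.82 on the log2 scale in M replicates 1, 2 and 3, and the median smooth muscle marker by 0.94, 0.25 and 0.74. FBN1 differed by 0.94, 0.59 and 0.77, highest in M replicate 1 and lowest in M replicate 2, as both lists were. FBLN5 differed by 1.10, 0.57 and 0.27 and LOX by 0.79, 0.18 and 0.72. Sertoli markers (6 of 9 with a row) were higher in every M library, with sums between 73.7 and 86.6 FPKM in the Y group and between 108 and 257 FPKM in the M group. Of the remaining lists, macrophage (7 of 8 with a row, 22.3 to 28.6 and 25.8 to 42.1 FPKM), spermatocyte (8 of 9, 92.7 to 97.1 and 77.2 to 96.9 FPKM) and round spermatid markers (6 of 7, 126 to 182 and 32.1 to 135 FPKM) overlapped in sum between the Y and M groups. Of the macrophage genes, 3 were higher and 2 lower in every M library. Spermatogonial markers (6 of 7 with a row) summed to between 54.9 and 61.7 FPKM in the Y group and between 61.9 and 113 FPKM in the M group. Only 1 of these 6 genes was without overlap. The Leydig markers (3 of 8 with a row) summed to between 12.7 and 21.7 FPKM in the Y group and to 11.2 FPKM in each M library. Their members did not run together: STAR was lower and NR5A1 higher in every M library, and CYP11A1 overlapped.

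The other genes of elastic fibre assembly were taken from 5 lists of 40 symbols, of which 35 had a row and 22 a mean of at least 0.5 FPKM. For a symbol on several rows the one with the highest mean was used. Among the related and marker genes named below, the rows of LTBP2, EFEMP1, TIMP3, TGFB2 and COL3A1 carry no GO term. Those of HMCN1 and DCN carry retroelement terms. The identity of these rows rests on the symbol alone. No gene of these lists passed an adjusted p of 0.05 in limma (Benjamini-Hochberg over all 12437 genes, smallest adjusted p 0.154). At an unadjusted p under 0.05, 9 of the 22 were higher in the M group and 1 was lower, where 14.2% and 10.9% of all genes tested were. In 9 of the 22 every M library lay above every Y library and in 2 below, beside 19.8% and 13.9% of all genes tested, and the median log2 difference was 0.50. Without M replicate 2, 8 of the 22 had an adjusted p under 0.05 in limma, and 2403 of all genes did.

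Among the other fibrillins, fibulins and latent TGF-beta binding proteins, 4 were tested and 3 of them were higher in the M group at an unadjusted p under 0.05. LTBP4, a binding protein that takes part in elastic fibre assembly, had 4.71, 4.22 and 5.38 FPKM in the Y group and 17.6, 8.60 and 11.6 FPKM in the M group, without overlap. Its log2 difference was 1.33 (standard error 0.26), with an adjusted p of 0.154 in limma. LTBP2, a microfibril-associated member of the same family, had 2.99, 3.20 and 2.50 FPKM in the Y group and 5.39, 4.72 and 4.93 FPKM in the M group, with a log2 difference of 0.78 (standard error 0.16) and an adjusted p of 0.154 in limma. HMCN1 (hemicentin 1), whose row carries retroelement terms, had a log2 difference of 0.89 (standard error 0.34) and overlapped. EFEMP1 (fibulin 3) ran the other way, at 0.803 ± 0.185 FPKM in the Y group and 0.387 ± 0.125 FPKM in the M group (SD, n = 3 each), with a log2 difference of -0.91 (standard error 0.35). The symbols FBN3, EFEMP2 and LTBP3 had no row and were not analysed here.

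Of the microfibril-associated proteins, 7 were tested and 4 were higher in the M group at an unadjusted p under 0.05. EMILIN3, an elastin microfibril interfacer, had 0.336, 0.428 and 0.513 FPKM in the Y group and 1.73, 1.21 and 1.58 FPKM in the M group. Its log2 difference, 1.61 (standard error 0.27), was close to that of ELN, with an adjusted p of 0.154 in limma. MFAP2, a small glycoprotein of the microfibril, had 1.51, 0.805 and 1.01 FPKM in the Y group and 2.80, 2.52 and 2.63 FPKM in the M group, with a log2 difference of 1.23 (standard error 0.24) and an adjusted p of 0.154 in limma. EMILIN1 and MFAP4, both microfibril proteins, differed by 0.99 and 0.74 on the log2 scale without overlap between the groups. EMILIN2 was lower in every M library, with a log2 difference of -0.40 (standard error 0.20). VCAN had no row and was not analysed here.

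**Figure D4:**
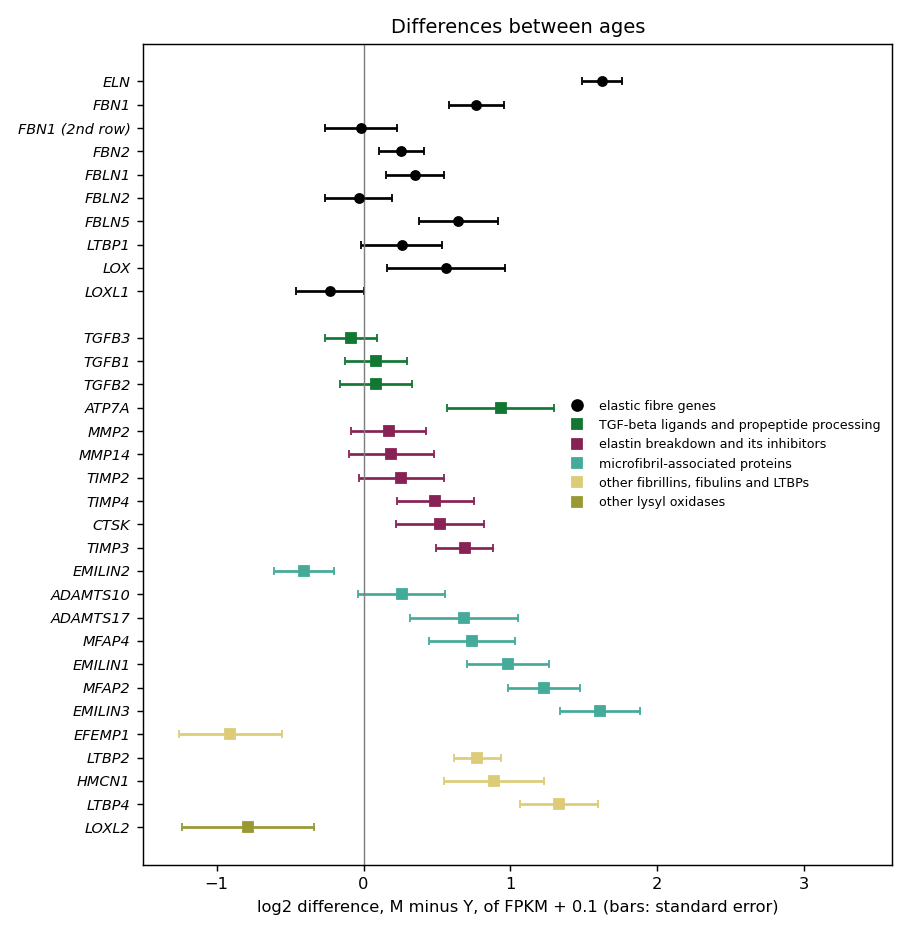
Log2 difference of FPKM + 0.1, M minus Y, for each elastic fibre gene (black circles) and each related gene tested (coloured squares, by list), with bars of 1 standard error on either side. ELN (1.62) and EMILIN3 (1.61) lie farthest to the right, and EFEMP1 (-0.91) and LOXL2 (-0.79) farthest to the left.

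The remaining 3 lists held fewer differences. Of 6 genes of elastin breakdown and its inhibitors, TIMP3, a metalloproteinase inhibitor bound to the matrix, was the 1 with an unadjusted p under 0.05. Its level was 13.2 ± 0.455 FPKM in the Y group and 21.8 ± 4.97 FPKM in the M group (SD, n = 3 each), without overlap, with a log2 difference of 0.69 (standard error 0.19) and an adjusted p of 0.154 in limma. The gelatinase MMP2 and the membrane protease MMP14 overlapped between the groups, with log2 differences of 0.17 and 0.19, and the elastases MMP9 and MMP12 were listed at 0 or at most 0.0815 FPKM. The elastin-degrading cathepsin CTSK had a log2 difference of 0.52 and overlapped, and CTSS had no row.

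LOXL2, the single further lysyl oxidase tested, had a log2 difference of -0.79 (standard error 0.45) and overlapped between the groups. The TGF-beta ligands TGFB1, TGFB2 and TGFB3 had log2 differences of 0.08, 0.08 and -0.08, and all 3 overlapped. The row of ATP7A, the copper transporter that supplies lysyl oxidases, carries cytochrome-c oxidase terms. It had a log2 difference of 0.93 and was the 1 of 4 genes in its list with an unadjusted p under 0.05.

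The genes whose pattern over the 6 input libraries was most like that of ELN were found by the root mean square difference of log2(FPKM + 0.1), each gene centred on its own mean. The nearest 5 of the genes tested were ANGPT2 (0.167), EMILIN3 (0.185), the row ENSBGRG00000026076 with symbol MED12 and cytokine receptor terms (0.193), CADPS2 (0.217) and CHRNA2 (0.221). ANGPT2 is the symbol of a ligand of the endothelial receptor TEK and stands on 3 rows. The row found here carries angiogenesis and ribonuclease terms, and that of CADPS2 carries a term of ubiquitin-dependent protein breakdown. Which transcripts these rows measure was not tested. The ANGPT2 row had 0.302, 0.429 and 0.411 FPKM in the Y group and 1.35, 1.04 and 1.29 FPKM in the M group. MFAP2 was the 58th and LTBP4 the 70th nearest gene, and the general stromal markers DCN and COL3A1 were the 71st and 74th. Of the elastic fibre genes themselves FBN1 was nearest to ELN (0.458, 460th of the genes tested), followed by FBLN5 (0.554, 1178th), and LOXL1 was farthest (0.963, 8622nd).

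The deposited comparison of m6A peaks between the ages held 1438 differential peaks. None lay on any of the 20 elastic fibre rows, where 5.63% of all rows of the table carried such a peak. Among rows with a mean of at least 0.5 FPKM, 9.29% did. The peak table gives no value per animal, so no test was made, and peaks present at both ages alike are not in it. Of the related genes LTBP4 carried 1 peak, at chr20:66163202-66163912 (LU_Bosgru_v3.0), 711 bp wide and annotated to exon 16 of 30 of the gene, which spans 66150976 to 66177284 on the minus strand.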

How the data were processed

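The FPKM were deposited by the authors, with a value for every gene in the 6 input libraries. In their methods, reads were trimmed (Trimmomatic), freed of rRNA (SortMeRNA) and mapped with HISAT2 2.0.4 to LU_Bosgru_v3.0, with unique reads kept. The program that gave FPKM is not given in the sources used here. The paper gives ranges of data volume and alignment rate over its samples. Fragments per gene are not among the values used here, so the number of fragments behind a low FPKM was not derived. In genes under 0.3 FPKM the ratio of 2 libraries gathered at a common step, which put the depth of the other 5 libraries at 0.997 to 1.10 times that of Y replicate 1. The total of FPKM was 116187 to 139921, and 16293 to 16390 genes were above 0. Positions and widths of differential peaks were taken as deposited from the authors' MeTDiff comparison, annotated with ChIPseeker. The 2 peak lists of single groups were not used.

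Ages were compared in limma 3.58.1 (R 4.3.3; lmFit, eBayes with trend, two-sided, Benjamini-Hochberg) on log2(FPKM + 0.1), over 12437 genes whose mean reached 0.5 FPKM, with no replicate block. The added 0.1 understates differences of low genes. The fit was run on simulated data with independent noise and with the spreads shuffled over the genes. This checks the computation and holds no shift shared by the genes of a library. An exact permutation test of 3 against 3 libraries cannot give a p below 0.1. The labels give 6 yaks and 3 libraries of each kind per age.

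The 9 genes, the related lists, the marker lists and the alternatives were chosen with earlier results of these data known. Named genes are the 9 genes, the largest differences of each related list, and the 5 patterns most like that of ELN. MMP2, MMP9, MMP12, MMP14, CTSK, EMILIN2, LOXL2, DCN, COL3A1 and the TGF-beta ligands lie outside this rule and were named after their values were seen. Alternatives were other pseudocounts, filters and scalings, eBayes without trend, a replicate block, summed rows of a symbol, short peaks and each library left out. Other steps used Python 3.11.15, pandas 2.3.3, numpy 2.4.6 and matplotlib 3.10.9.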

Additional observations from a re-analysis of the deposited data

How the results depend on the processing

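The count of genes with an adjusted p under 0.05 in limma was 4 and moved with many of the settings. It stayed at 4 with a pseudocount of 1, with median ratio scaling and with quantile normalization. It was 2 with a pseudocount of 0.01, 8 with no filter, 2 with a mean of at least 1 FPKM, 9 with eBayes without trend and 1 with the replicate block. With 1 library left out it ranged from 0 (without Y replicate 3) to 2403 (without M replicate 2), and the cause was not tested. ELN was called in limma with all 6 libraries. Its adjusted p in limma was 0.0111 to 0.301 with 1 library left out, and under 0.05 only without M replicate 2. With the replicate block the adjusted p of ELN in limma was 0.204. Its log2 difference was 1.25 with a pseudocount of 1 and 1.67 with 0.01. As ELN was among the genes chosen for this difference, nothing is read from its p.

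The median log2 difference of the elastic fibre genes, 0.30, lay between 0.26 and 0.42 (without M replicate 2) with 1 library left out, and between 0.24 and 0.35 elsewhere. The latter is the value without the second FBN1 row, a choice made after seeing the data. FBLN2 and the second FBN1 row changed sign in some of these fits (-0.19 to 0.19 and -0.17 to 0.24). The count of related genes with an adjusted p under 0.05 ranged from 0 to 8 (without M replicate 2) and was 0 in the other settings, the replicate block included. Same-numbered libraries did not deviate together (correlations -0.0222, -0.0909 and 0.00668), and differently numbered ones lay between -0.13 and 0.144. With 3 libraries per group these values cannot tell whether the numbers mark a shared step. The count of peaks on elastic fibre genes was 0 with all peaks and with those of at most 1000 bp. The median of all genes was 0.04 as deposited and -0.02 after median ratio scaling.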
